A study of Schizosaccharomyces pombe with 49 samples.

Results

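Meiosis in fission yeast (Schizosaccharomyces pombe) was followed here across 18 RNA sequencing libraries, 9 taken 4, 5 and 6 h after induction and 9 taken 1, 2 and 3 h after it, out of 49 libraries in the series and 31 in its meiotic course. The members are all libraries of these hours in wild type, in a red1 deletion and in a pir1 deletion, with 1 library per strain and hour. All 3 strains are diploids that carry pat1-as2, an allele of the Pat1 kinase that the ATP analogue 1-NM-PP1 can inhibit. Cells were first held in medium without nitrogen, for 4 h per the labels of the starved libraries, and then given 25 µM of the inhibitor at 26 °C, so every group compared here has inhibited Pat1 and a history of starvation. The red1 strain lacks Red1, a scaffold of the nuclear machinery that eliminates meiotic transcripts, and the pir1 strain lacks its partner Pir1, whose gene is listed as iss10. The question is which genes separate the middle and late hours of the programme from its first hours.

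As background, Pat1 blocks meiosis in growing cells by inactivating the RNA-binding protein Mei2. Once Pat1 is off, cells replicate their DNA, pair and recombine their chromosomes during an oscillating nuclear movement called the horsetail stage, pass through the meiotic divisions, and wrap the nuclei in forespore membranes and spore walls. The transcription factors Ste11, MBF and the forkhead protein Mei4 act in turn from entry to the middle of this sequence, and bZIP factors such as Atf21 and Atf31 act late. Inhibiting Pat1 starts the programme without mating, so it bypasses the normal start by pheromone.

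Levels are given in CPM, read counts scaled to a common library depth, after TMM scaling, which sets the libraries to a common level for most genes. CPM does not correct for gene length, so levels are compared between libraries and not between genes. A gene was called at an adjusted p under 0.05 (edgeR's quasi-likelihood test with Benjamini-Hochberg adjustment, strain as block). The hours of a phase and the strains stand in for replicates and no label says that libraries came from separate cultures, so p-values measure how steady a difference was over hours and strains. The pir1 libraries form a file set of their own, so that strain and set cannot be told apart, and within-strain values are the within-set values. In bulk RNA, fewer cells in a stage and less RNA per cell cannot be told apart.

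The main count column ignores strand, and reads lying on overlapping genes are dropped from it. 918 of 7015 features had no read in it in any of the 18 libraries, against 240 in the column counted by strand. Genes of central interest are among those lost, including spo6, mfr1, dmc1 and rec12. For such genes values come from the stranded column and are marked "by strand". Strand was checked in 1832 genes with at least 100 reads on average and no reads lost to a neighbour. In these, 1.35 to 11.7% of the reads of a library lay on the other strand. Whether such reads are transcripts of that strand or come from incomplete strand separation was not tested. Gene reads per library ran from 16.9 to 56.5 M. The libraries carried the labelled deletions: red1 was at 2.71 to 13.5 CPM in the red1 deletion, against 87.4 to 177 in the other strains, and iss10 was at 1.15 to 2.96 CPM in the pir1 deletion, against 21.7 to 101.

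At 4-6 h the wtf genes and many genes of the spore wall were higher, and most recombination and histone genes and part of the replication genes were lower. Of 5623 genes tested, 1150 (20.5%) were higher and 1130 (20.1%) lower. With a change of at least 2-fold, 482 (8.57%) were higher and 186 (3.31%) lower. Counted by strand, 1393 of 6550 genes (21.3%) were higher and 1312 (20.0%) lower. Shares of list members called are to be set against these, in the same column. The split depends on the scaling: relative to total gene reads, 599 genes were higher and 2228 lower, and the median log2 fold change over all genes moved from 0.02 to -0.29. List counts relative to total gene reads belong beside these 599 and 2228 of 5623 genes. Without the wild-type library of 1 h, 112 genes were lower by at least 2-fold, the largest move in that count from leaving out 1 library. Fits within 1 strain have 3 libraries a phase and differ in how much they call. Wild type alone called 4.51% of genes higher and 2.53% lower, the red1 deletion alone 18.7% and 17.3%, and the pir1 deletion alone 20.5% and 16.6%. Counts of list members within strains are to be read against these shares, not against each other. Few genes separated the phases without overlap, counted over all strains. All 9 libraries of 4-6 h lay above all 9 of 1-3 h in 8 genes (0.142%) and below them in 46 (0.818%), among them the histone H4 gene hhf2 and the ribosomal protein gene rps002.

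Among called genes that carry a symbol, average 100 reads or more and move 1 way in all strains, the largest log2 fold change was in hry1, annotated as a cation-binding HHE domain protein, at 5.23 ± 1.25 (SE), adjusted p = 0.0042. In wild type it read 1.01, 1.51 and 2.12 CPM at 1, 2 and 3 h and 6.11, 311 and 1535 CPM at 4, 5 and 6 h. In the red1 deletion the same hours read 6.97, 7.72 and 10.7 CPM and then 14.6, 24.3 and 62.2 CPM. In the pir1 deletion they read 3.01, 33.5 and 121 CPM and then 541, 1690 and 3580 CPM. The gene climbed at every hour in each strain, the red1 deletion ended lowest, and the phases overlapped across strains but not within any of them. The uncharacterised mug146 (log2 fold change 4.52) and mug24 (4.10), which codes for an RNA-binding protein, followed. In wild type mug24 went from 21.3, 16.6 and 29.9 CPM to 761, 8046 and 1078 CPM, a peak at 5 h, while in the pir1 deletion it stood at 1789 CPM by 2 h.

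Other large rises were seen in the proton ATPase gene pma2 (3.32 ± 0.78 (SE), adjusted p = 0.004), the alpha-amylase homologue meu7 (3.32 ± 0.95 (SE), adjusted p = 0.012), the alpha-glucosidase gene gto1 (3.13 ± 0.67 (SE), adjusted p = 0.0026), the melibiase gene mel1 (3.53) and the protein repair methyltransferase gene pcm2 (3.27). The palmitoyltransferase subunit gene erf4 rose by 3.36 on the log2 scale, the tRNA-modifying enzyme gene rit1 by 3.21, the protein kinase gene ppk24 by 2.97 and the glomulin gene glm1 by 2.89. meu7 was at 34.5 to 18389 CPM (median 1070) at 1-3 h and 3056 to 40700 CPM (median 16043) at 4-6 h. Counted by strand, pdc202 also rose (4.26 ± 0.94 (SE), adjusted p = 0.0029), from 9.16, 12.4 and 15.7 CPM to 25.5, 101 and 1259 CPM in wild type. The gene trp663 rose by 3.70 by strand.

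**Figure D1:**
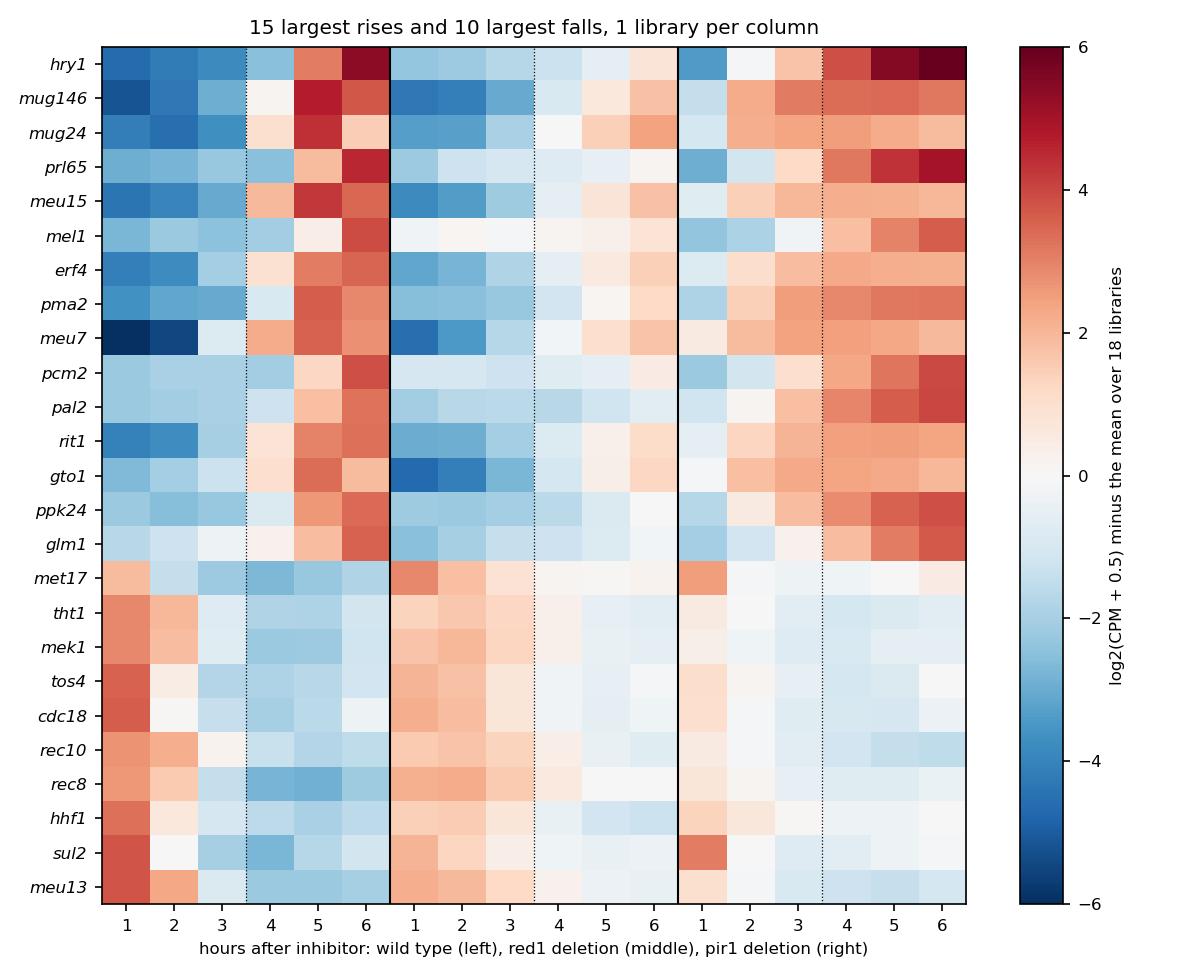
Levels of the 15 named genes with the largest rises (top) and the 10 with the largest falls (bottom) in each of the 18 libraries, as log2(CPM + 0.5) minus the gene's mean. Columns are hours 1 to 6 in wild type, red1 deletion and pir1 deletion, with dotted lines between 3 and 4 h. Most rises come at 4 or 5 h in wild type, are shallower in the red1 deletion, and come by 2 or 3 h in the pir1 deletion.

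Among the same genes the deepest fall without strand was in meu13, which codes for the homologous-pairing protein Hop2 (-2.70 ± 0.60 (SE), adjusted p = 0.0029). It was at 18.4 to 493 CPM (median 83.0) at 1-3 h and at 7.17 to 42.7 CPM (median 14.7) at 4-6 h. In wild type alone it went from 493 CPM at 1 h to 7.23 CPM at 4 h. The sulphate transporter gene sul2 changed by -2.59 ± 0.70 (SE), adjusted p = 0.0086, and the homocysteine synthase gene met17 by -1.96 ± 0.53 (SE), adjusted p = 0.0088. sul2 was at 3246 CPM in wild type at 1 h and already at 228 CPM at 2 h, so most of its fall lies inside the early phase. The nuclear membrane gene tht1 fell by 2.01 on the log2 scale.

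Promoter letters of a falling gene, of mei4 and of rising genes are shown because the regulators above bind short motifs. Each run is the 250 bases before the annotated gene start in RefSeq, assembly ASM294v3, 5′ to 3′ on the gene's strand. For the counts the build was not given in the sources used here. Capitals mark matches, on either strand, to GTAAACA or GTAAATA (the forkhead core of Mei4), ACGCGT (the MluI box of MBF), TTCTTTGTT (the Ste11 box) and TGACGT (the core of the CRE site of bZIP factors). The annotated start of meu13, mug24 and hry1 is the start of the coding sequence, so their transcripts may begin inside these bases.
meu13 (chrI:977459-977708, forward strand): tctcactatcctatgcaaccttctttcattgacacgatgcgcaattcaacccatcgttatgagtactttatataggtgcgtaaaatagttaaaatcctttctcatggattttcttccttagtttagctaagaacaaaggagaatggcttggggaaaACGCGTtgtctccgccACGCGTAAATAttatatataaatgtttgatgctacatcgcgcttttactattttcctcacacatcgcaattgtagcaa
mei4 (chrII:1472818-1473067, forward strand): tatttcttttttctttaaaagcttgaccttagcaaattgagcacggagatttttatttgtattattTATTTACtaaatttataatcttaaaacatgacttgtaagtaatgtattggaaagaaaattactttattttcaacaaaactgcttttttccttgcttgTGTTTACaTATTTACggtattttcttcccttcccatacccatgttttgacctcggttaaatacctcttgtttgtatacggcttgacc
mug24 (chrIII:1919032-1919281, forward strand): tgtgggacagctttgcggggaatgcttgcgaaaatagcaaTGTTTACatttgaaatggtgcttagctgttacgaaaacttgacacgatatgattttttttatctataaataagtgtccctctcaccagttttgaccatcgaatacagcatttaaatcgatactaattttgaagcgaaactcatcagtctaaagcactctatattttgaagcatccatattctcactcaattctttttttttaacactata
hry1 (chrI:5502325-5502574, forward strand): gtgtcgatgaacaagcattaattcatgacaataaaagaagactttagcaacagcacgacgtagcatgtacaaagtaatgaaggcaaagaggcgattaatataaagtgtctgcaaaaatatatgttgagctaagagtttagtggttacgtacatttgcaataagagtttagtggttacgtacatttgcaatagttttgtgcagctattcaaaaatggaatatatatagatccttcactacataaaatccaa
The meu13 window holds 2 MluI boxes, 94 and 78 bases before the start, and the second overlaps a forkhead core on the last bases of the box. The mei4 window holds 3 forkhead cores on the other strand, beginning 184, 87 and 79 bases before the start, and mug24 holds 1 at 210 bases. The hry1 window holds none of the motifs searched. Windows of the rising genes mug146 and prl65 and of the falling gene sul2 were read as well. They are not printed, and they also hold none of the motifs.

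As a description, each motif was counted over the promoters of the called groups. The MluI box lay in 50 of 206 promoters of genes lower by at least 2-fold by strand (24.3%), in 2 of 389 of those higher (0.514%) and in 135 of 5026 of all protein-coding genes tested (2.69%). Within the recombination list 11 of 20 promoters held it, and within the replication list 7 of 27. Either forkhead core lay in 144 of 389 promoters of the higher genes (37.0%), 55 of 206 of the lower (26.7%) and 1356 of 5026 of all (27.0%). In lists with many falling members the shares were also above that of all promoters, at 53 of 141 for ribosomal proteins, 10 of 27 for replication and 8 of 20 for recombination. GTAAACA alone was in 753 of 5026 of all promoters, 97 of 389 of the higher genes (24.9%) and 40 of 206 of the lower (19.4%). It lay in 38 of 91 mug promoters, 10 of 21 of the anaphase list and 6 of 8 of the mde genes, which are named for depending on Mei4. The CRE core lay in 51 of 389 promoters of the higher genes (13.1%), 8 of 206 of the lower (3.88%) and 278 of 5026 of all (5.53%). The Ste11 box lay in 9 of 206 of the lower (4.37%), 4 of 389 of the higher (1.03%) and 79 of 5026 of all (1.57%), and in 8 of 22 promoters of the mating list. A match describes letters and is not a shown binding site.

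**Figure D2:**
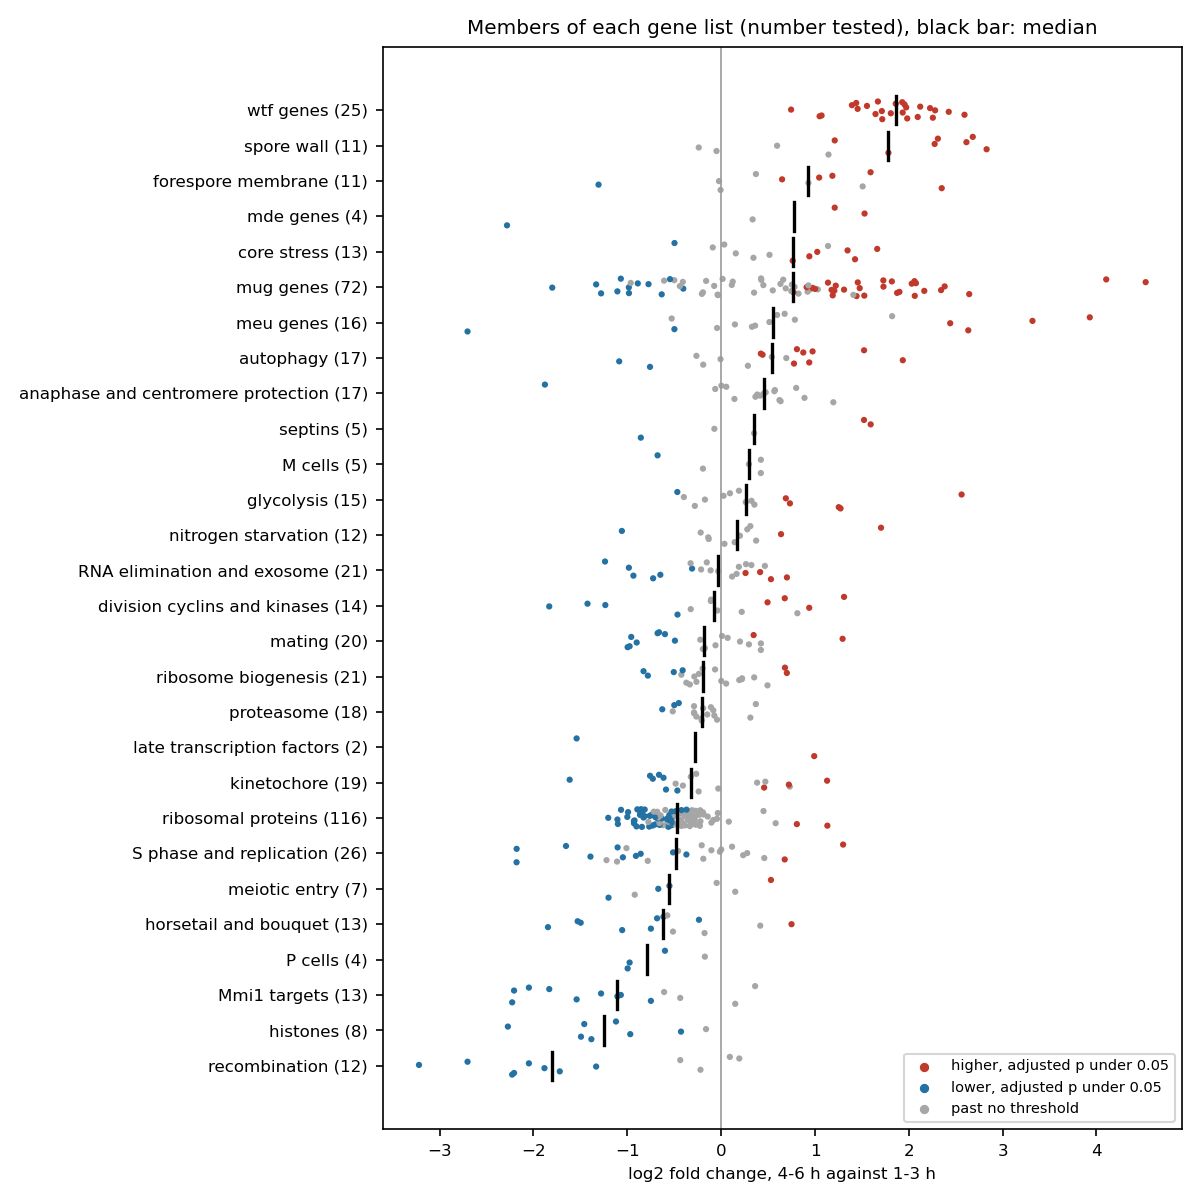
Log2 fold change of 4-6 h against 1-3 h for each tested member of the 28 gene lists, in the column without strand, with lists ordered by their median (black bar) and the number tested in brackets. Red and blue points passed the adjusted p of 0.05, upward and downward. The wtf genes lie entirely to the right with a median of 1.86 and the recombination list at the left with a median of -1.80.

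Among regulators of meiotic entry mei2 and ste11 fell and mmi1 rose. Of 7 genes of that list tested, 3 fell and 1 rose, against 20.1% and 20.5% of all genes. Relative to total gene reads 4 fell and 0 rose, in a fit where most calls over all genes were lower. mei2, the RNA-binding protein that starts meiosis, was at 845 to 2126 CPM (median 1651) at 1-3 h and 254 to 1512 CPM (median 619.8) at 4-6 h (-1.20 ± 0.27 (SE), adjusted p = 0.0031). It was highest at 2 h in wild type, at 3 h in the red1 deletion and at 1 h in the pir1 deletion. ste11, the HMG-box activator of entry, fell (-0.67 ± 0.20 (SE), adjusted p = 0.013), and so did the kinase gene pat1 (-0.55 ± 0.12 (SE), adjusted p = 0.0025). mmi1, the factor that marks meiotic transcripts for elimination, rose (0.53 ± 0.13 (SE), adjusted p = 0.0043), a call lost relative to total gene reads. mei3, the Pat1 inhibitor, stood at -0.92 with an adjusted p of 0.12, at 4.17 CPM in wild type at 1 h.

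The forkhead gene mei4 did not pass the test (0.15 ± 0.45 (SE), adjusted p = 0.81), and its level varied from hour to hour within each strain. In wild type it read 76.1, 209.7, 645, 863, 216 and 79.4 CPM from 1 to 6 h, a peak at 4 h. In the red1 deletion it read 123, 176, 283, 382, 425 and 402 CPM, with its highest value at 5 h. In the pir1 deletion it read 808, 791, 796, 586, 376 and 286 CPM, high from the first hour and lower from 4 h on. Within the pir1 deletion alone, 4-6 h was lower than 1-3 h by 0.94 on the log2 scale (adjusted p = 0.032, edgeR). The MBF activator gene rep1 had a log2 fold change of -0.05.

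Most histone genes and part of the premeiotic replication genes fell, where 20.1% of all genes fell and 20.5% rose. Of 26 replication genes tested 10 fell and 2 rose, with a median log2 fold change of -0.49, against 0.02 over all genes. The origin licensing gene cdc18 fell from 5.12 to 179 CPM (median 23.9) to 3.15 to 12.2 CPM (median 9.06) (-2.18 ± 0.59 (SE), adjusted p = 0.0085), and the transcription factor gene tos4 fell with it (-2.18). The polymerase gene pol1 (-1.39), the helicase subunit gene mcm2 (-0.91) and the MBF subunit gene res2 (-1.65) also fell. The MBF activator gene rep2 rose, from 7.77 to 34.5 CPM at 1-3 h up to 11.1 to 62.0 CPM at 4-6 h (adjusted p = 0.0016). Within strains the replication list gave 2, 13 and 3 lower and 0, 3 and 7 higher in wild type, the red1 deletion and the pir1 deletion. These fits called 2.53, 17.3 and 16.6% of all genes lower and 4.51, 18.7 and 20.5% higher. Of 8 histone genes 7 fell and 0 rose (median -1.25). The histone H4 gene hhf1 changed by -2.27 ± 0.51 (SE), adjusted p = 0.003 and the H2B gene htb1 by -1.49 ± 0.37 (SE), adjusted p = 0.0049, and htb1 in wild type went from 3485 CPM at 1 h to 635 CPM at 2 h. hhf2 was at 345 to 1853 CPM (median 494) at 1-3 h and 156 to 286 CPM (median 235) at 4-6 h without overlap (-1.46). Histone copies share sequence, so how reads divide among them is uncertain.

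Most genes of the chromosome axis, of DNA breaks and of strand exchange fell. Of 12 recombination genes tested without strand 8 fell and 0 rose (median -1.80). By strand all 20 could be tested, and 15 fell and 0 rose (median -1.69). Of all genes 20.1% fell and 20.5% rose without strand, and 20.0% and 21.3% by strand. The meiotic cohesin gene rec8 read 566, 277, 34.0, 12.7, 11.9 and 20.8 CPM from 1 to 6 h in wild type, 409, 428, 278, 139.9, 93.4 and 93.8 CPM in the red1 deletion and 151, 103, 65.7, 55.5, 56.2 and 69.0 CPM in the pir1 deletion (-2.23 ± 0.53 (SE), adjusted p = 0.0044). The wild-type libraries of 4-6 h were the lowest of all, and the red1 libraries kept the most. The linear element genes rec10 (-2.21 ± 0.36 (SE), adjusted p = 0.0012) and rec25 (-1.88), the cohesin gene rec11 (-1.72) and the checkpoint kinase gene mek1 (-2.05) fell too. Within strains 6, 9 and 7 members were lower in wild type, the red1 deletion and the pir1 deletion, and 0, 1 and 1 were higher. Of all genes 2.53, 17.3 and 16.6% were lower in these fits and 4.51, 18.7 and 20.5% higher.

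By strand, the break-formation gene rec15 showed the deepest fall of the list (-3.31 ± 0.56 (SE), adjusted p = 0.0013), from 10.7 to 299 CPM (median 73.7) to 3.90 to 25.9 CPM (median 5.53). rec12, the Spo11 homologue that cuts DNA, changed by -1.69 ± 0.47 (SE), adjusted p = 0.0092, and the linear element gene rec27 by -2.34 ± 0.48 (SE), adjusted p = 0.002. The strand exchange gene dmc1 was at 317 to 2048 CPM (median 697) and then 88.4 to 538 CPM (median 198) (-1.84 ± 0.37 (SE), adjusted p = 0.0018). In wild type dmc1 was highest at 2 h, at 2048 CPM, and at 6 h it was at 88.4 CPM. hop1, an axis protein gene, fell by strand (-2.12 ± 0.59 (SE), adjusted p = 0.0096). Among horsetail and bouquet genes 8 of 13 fell and 1 rose without strand, against 20.1% and 20.5% of all genes. The dynactin gene arp1 (-1.84), the bouquet gene bqt1 (-1.50) and the telomere protein gene taz1 (-0.61) are examples.

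Targets of RNA elimination, transcripts that Mmi1 marks for destruction in growing cells, gave 9 of 13 lower and 0 higher (median -1.10). Every member also stands in another list here, so the count is no separate evidence. The uncharacterised mug8 was at 566, 437 and 320.1 CPM and then 142, 84.3 and 75.2 CPM in wild type, and at 1252, 972 and 827 CPM and then 723, 627 and 566 CPM in the red1 deletion (-1.10 ± 0.23 (SE), adjusted p = 0.0025). Each red1 library held more mug8 than the wild-type library of its hour. Among 21 genes of the elimination machinery and the exosome 4 rose and 6 fell, near the background of 20.5% higher and 20.1% lower. Relative to total gene reads 0 rose and 11 fell, in a fit that called far more of all genes lower than higher. Among the 6 lower in the reported fit were the helicase gene mtl1 (-0.93), the poly(A) polymerase gene pla1 (-0.65) and the exosome subunit gene rrp40 (-0.98). red1 fell by 0.72 on the log2 scale and iss10 rose by 0.70 (-0.12 in the pir1 deletion alone, which lacks it), each in a fit that includes the strain that lacks the gene. The call of iss10 was lost relative to total gene reads and without any 1 of wild type 2 h, red1 deletion 1, 2 or 6 h.

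Genes of the meiotic divisions gave no shared direction between the phases. Of 14 cyclins and kinases 4 rose and 4 fell, where 20.5% of all genes rose and 20.1% fell. Relative to total gene reads 1 rose and 7 fell, in a fit where most calls over all genes were lower. The cyclin genes crs1 (-1.83 ± 0.33 (SE), adjusted p = 0.0013), cig1 (-1.23) and cig2 (-1.42, not called by strand) fell, and so did cdc2, the kinase they bind (-0.46). The polo kinase gene plo1 (0.94 ± 0.34), the NIMA kinase gene fin1 (1.31 ± 0.44) and the aurora kinase gene ark1 (0.68 ± 0.24) rose, each value with its SE. cdc13, the B-type cyclin of the divisions, missed the threshold (0.81 ± 0.37 (SE), adjusted p = 0.09). It read 412, 626, 958, 2842, 1892 and 412 CPM in wild type, a peak at 4 h, 361, 528, 821, 1170, 1662 and 1928 CPM in the red1 deletion and 1321, 1923, 1683, 1577, 1149 and 848 CPM in the pir1 deletion. The phosphatase gene cdc25 had a log2 fold change of 0.22. The call of plo1 was lost without any 1 of wild type 1, 2, 3, 4 or 5 h, red1 deletion 1, 2, 5 or 6 h, that of fin1 without wild type 1 or 2 h, red1 deletion 1 or 2 h and that of ark1 without wild type 1, 2, 4 or 5 h, red1 deletion 1, 2, 5 or 6 h, and those of plo1 and ark1 relative to total gene reads. In the pir1 deletion alone plo1, fin1 and ark1 took the other sign (-0.40, -0.38 and -0.22). By strand the kinase regulator spo6, needed for the later division, rose (3.01 ± 0.96 (SE), adjusted p = 0.02), with 92.1, 21.6, 151, 6619, 2666 and 502 CPM in wild type, though its value in the pir1 deletion alone was -0.40.

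Few anaphase genes were called over the 3 strains. Of 17 tested, 0 rose and 1 fell over the 3 strains. The red1 deletion alone had 12 higher and 0 lower, where 18.7% and 17.3% of all genes were called, and the pir1 deletion alone 1 higher and 7 lower, against 20.5% and 16.6% of all genes. slp1, an activator of the anaphase-promoting complex, read 101, 273, 661, 2569, 752 and 232 CPM in wild type and 1273, 1169, 1132, 969, 693 and 529.7 CPM in the pir1 deletion (1.20 ± 0.57 (SE), adjusted p = 0.1 over the strains). By strand the meiotic activator mfr1 rose (2.95 ± 0.89 (SE), adjusted p = 0.015), and so did apc14, a subunit of the complex (1.96 ± 0.31 (SE), adjusted p = 0.0013), while mfr1 in the pir1 deletion alone stood at -0.075. mes1, which restrains that complex after the first division, had a log2 fold change of 0.62 (adjusted p = 0.31). The member that fell, moa1, codes for the kinetochore protein meikin (-1.88 ± 0.45 (SE), adjusted p = 0.0042). Of 19 kinetochore genes 7 fell and 3 rose without strand, and 9 of 21 fell and 0 rose by strand. Of all genes 20.1% fell and 20.5% rose without strand, and 20.0% and 21.3% by strand. Among the rises without strand, mis18 (1.13) was called lower by strand (-0.83). Relative to total gene reads 12 kinetochore genes fell and 0 rose, in a fit where most calls over all genes were lower. The centromeric histone gene cnp1 was lower (-1.61).

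**Figure D3:**
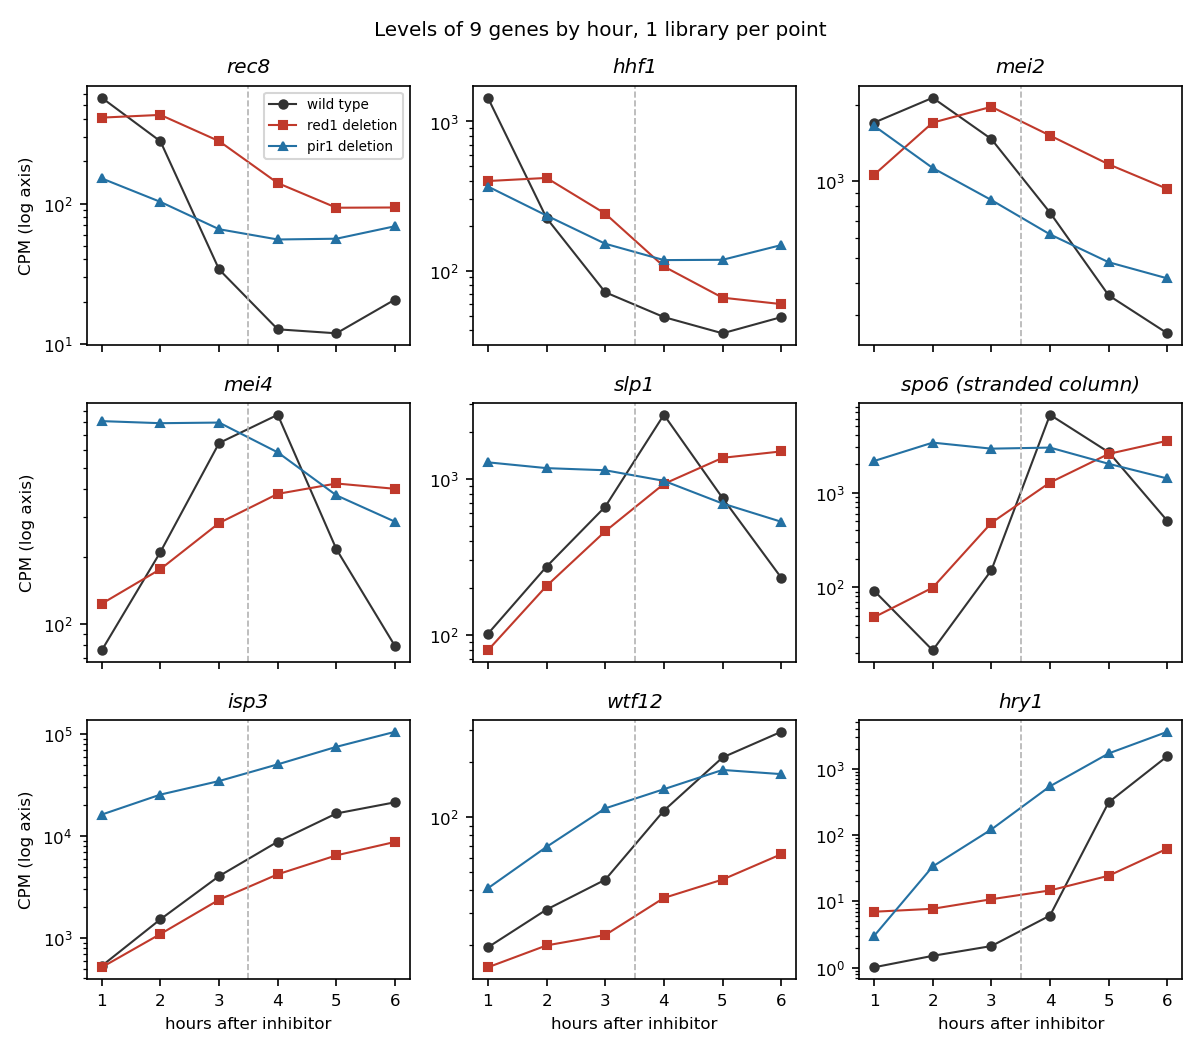
CPM (log axis) of 9 genes at 1 to 6 h after the inhibitor in wild type (black), the red1 deletion (red) and the pir1 deletion (blue), 1 library per point, with spo6 counted by strand. rec8 and hhf1 fall in all strains, mei4, slp1 and spo6 peak at 4 h in wild type and at 5 or 6 h in the red1 deletion, and isp3, wtf12 and hry1 are higher at 6 h than at 1 h in each strain.

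Part of the genes that build the spore rose, where 20.5% of all genes rose and 20.1% fell. Of 11 forespore membrane genes 5 rose and 1 fell (median 0.93). The SNARE genes syb1 (1.59 ± 0.24 (SE), adjusted p = 0.0012), sec9 (1.19) and psy1 (1.04) and the lipid transfer gene spo20 (0.65) rose, as did spo3 (2.35 ± 0.76), and spo9 fell (-1.31 ± 0.37). syb1 was at 277 to 1039 CPM (median 429) at 1-3 h and 558 to 2870 CPM (median 1469) at 4-6 h and was higher within every strain, while psy1, sec9 and spo3 were at -0.14, -0.087 and -0.055 in the pir1 deletion alone. Of 5 septin genes tested without strand 2 rose and 1 fell, and by strand 1 of 7 rose and 1 fell. Of the rises without strand, spn6 averaged only 0.24 CPM at 1-3 h and 0.82 CPM at 4-6 h. The meiotic septin gene spn7 passed without strand (1.52 ± 0.33 (SE), adjusted p = 0.0025) and not by strand (1.00, adjusted p = 0.12). The gene spn1 fell (-0.86), and spn2 rose by strand (1.11, with -0.36 in the pir1 deletion alone), a call lost relative to total gene reads or without any 1 of wild type 1, 2, 4 or 5 h, red1 deletion 1, 2, 3, 5 or 6 h, pir1 deletion 1 h.

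Of 11 spore wall genes 7 rose and 0 fell (median 1.78), where 20.5% of all genes rose and 20.1% fell. Within strains 0, 8 and 4 were higher in wild type, the red1 deletion and the pir1 deletion, and 0, 0 and 2 were lower, with 4.51, 18.7 and 20.5% of all genes higher in these fits. isp3, a structural protein of the spore surface, was at 531, 1522 and 4039 CPM and then 8794, 16637 and 21412 CPM in wild type, and at 514, 1092 and 2369 CPM and then 4207, 6456 and 8744 CPM in the red1 deletion. In the pir1 deletion it was at 16221, 25475 and 34598 CPM and then 50457, 74977 and 105310 CPM (2.28 ± 0.41 (SE), adjusted p = 0.0013). Each strain climbed at every hour, and the pir1 deletion held more at 1 h than the red1 deletion at 6 h. The glucanase genes agn2 (2.68 ± 0.50 (SE), adjusted p = 0.0015) and eng2 (2.31 ± 0.47 (SE), adjusted p = 0.0021) and the glucan synthase genes mok12 (1.78 ± 0.49) and mok14 (2.83 ± 0.78) rose. The glucan synthase gene bgs2 did not pass (1.14 ± 0.60 (SE), adjusted p = 0.13), with a peak of 9004 CPM at 4 h in wild type and 889.7 CPM at 6 h.

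Late regulators rose by strand in 3 of 5 cases and fell in 1, where 21.3% of all genes rose and 20.0% fell. Without strand only 2 could be tested, and 1 rose and 1 fell. The bZIP gene atf31 rose (1.68 ± 0.64 (SE), adjusted p = 0.045, with -0.50 in the pir1 deletion alone), a call lost relative to total gene reads or without any 1 of wild type 1, 2, 3, 4 or 5 h, red1 deletion 1, 2, 3, 5 or 6 h, pir1 deletion 1 h. The gene atf21 missed the threshold (1.61 ± 0.67 (SE), adjusted p = 0.063). The zinc finger gene rsv2 rose without strand (0.99 ± 0.24 (SE), adjusted p = 0.0044). spo5, an RNA-binding protein of the later division, fell (-1.54 ± 0.47 (SE), adjusted p = 0.017), from a wild-type peak of 6883 CPM at 3 h to 216 CPM at 6 h. The copper-related factor gene cuf2 missed the threshold by strand (2.01 ± 0.80 (SE), adjusted p = 0.053), and the cyclin gene rem1 gave 0.75 (adjusted p = 0.31).

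Genes first listed for meiotic induction rose more often than they fell. Of all genes 20.5% rose and 20.1% fell without strand, and 21.3% and 20.0% by strand. Of 72 mug genes tested 29 rose and 12 fell (median 0.76). The rises include mug113, mug161 and mug97, which averaged only 0.17, 0.12 and 0.41 CPM at 1-3 h in this column. Within strains 12, 44 and 2 were higher in wild type, the red1 deletion and the pir1 deletion and 3, 7 and 19 lower. The shares of all genes called in those fits were 4.51, 18.7 and 20.5% higher and 2.53, 17.3 and 16.6% lower. By strand 36 of 91 rose and 13 fell. Among the meu genes 4 of 16 rose (25.0%), near the share of all genes, and 2 fell (12.5%). By strand 9 of 22 meu genes rose (40.9%) and 2 fell. mug103, of unknown function, was at 15.3 to 448 CPM (median 69.1) and then 135 to 1301 CPM (median 656) (2.64 ± 0.45 (SE), adjusted p = 0.0013), and the ubiquitin ligase gene meu34 rose by 2.63. Of the mde genes 2 of 4 rose and 1 fell, and by strand 3 of 8 rose and 1 fell. The fall without strand was mde1, which averaged only 0.29 CPM at 1-3 h and 0.091 CPM at 4-6 h. By strand the alpha-amylase gene mde5 changed by 3.00 ± 0.82 (SE), adjusted p = 0.009 and the RNA-binding protein gene mde7 by 2.84 ± 0.80 (SE), adjusted p = 0.01.

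The wtf genes, a family that includes meiotic drivers whose poison kills spores that lack the antidote, were higher at 4-6 h. All 25 tested rose, 24 of them by at least 2-fold, with log2 fold changes from 0.75 to 2.59 (median 1.86). The background share of higher genes was 20.5%. By strand 25 of 25 rose, and relative to total gene reads 25 rose. Within single strains 19 rose in wild type, 24 in the red1 deletion and 18 in the pir1 deletion, and 0 fell. Of all genes 4.51, 18.7 and 20.5% rose in these fits. wtf12 read 19.4, 31.3, 45.5, 109, 212 and 293 CPM in wild type, 15.1, 19.9, 22.7, 36.2, 45.6 and 62.8 CPM in the red1 deletion and 40.9, 68.9, 112, 142, 181 and 172 CPM in the pir1 deletion (1.71 ± 0.28 (SE), adjusted p = 0.0012). The red1 series was the lowest of the 3 at each hour. wtf5 (1.05), wtf8 (1.65) and wtf2 (1.98) rose as well. Members are related in sequence and some may share reads, so single values are uncertain. Only 16 of the 25 entered the set of protein-coding promoters described above.

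Autophagy, sugar use and stress genes rose in part, where 20.5% of all genes rose and 20.1% fell. Of 17 autophagy genes 9 rose and 2 fell. atg8, the ubiquitin-like protein of the autophagosome, was at 77.7 to 1058 CPM (median 172) and then 253 to 3186 CPM (median 1300) (1.94 ± 0.29 (SE), adjusted p = 0.0012). ctl1 (1.52) and atg5 (0.94) rose, and the kinase gene atg1, which starts autophagy, fell (-0.76 ± 0.13 (SE), adjusted p = 0.0013). Of 13 stress genes 6 rose and 1 fell, with the phosphatase gene pyp2 (1.66), the heat shock gene hsp9 (1.43), the sulfiredoxin gene srx1 (1.35) and the peroxidase gene gpx1 (1.02) among the rises. Of 15 glycolysis genes 5 rose and 1 fell. The hexokinase genes hxk1 (1.27 ± 0.19 (SE), adjusted p = 0.0012) and hxk2 (1.25) and the aldolase gene fba1 (0.73) rose. Of the nitrogen starvation genes few were called, 2 of 12 higher and 1 lower, with the peptide transporter gene ptr2 lower (-1.06) and the ammonium transporter gene amt2 higher (0.64).

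Part of the ribosomal protein genes fell. Of 116 tested 47 fell and 2 rose (median -0.47). Relative to total gene reads 90 fell, in a fit where most calls over all genes were lower. The symbols chosen also take in subunits of RNase P, whose genes rpp1 and rpp40 rose by strand. rps002 was at 440.5 to 899 CPM (median 717) at 1-3 h and 234 to 420.3 CPM (median 347) at 4-6 h (-0.93 ± 0.17 (SE), adjusted p = 0.0013), with no overlap. rps1002 fell further (-1.20). Paralogous pairs share reads and are uncertain singly. Wild type alone called 1 of them lower, the red1 deletion 67 and the pir1 deletion 13, where 2.53, 17.3 and 16.6% of all genes were lower. Ribosome biogenesis genes gave 4 lower and 2 higher of 21, and proteasome genes 3 lower and 0 higher of 18. Neither share of lower genes exceeded the 20.1% of all genes. Relative to total gene reads 11 ribosome biogenesis and 13 proteasome genes fell, in the fit where most calls over all genes were lower.

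Mating genes were called lower in 8 of 20 cases and higher in 2, where 20.1% of all genes were lower and 20.5% higher. Of the rises, byr1 averaged only 0.18 CPM at 1-3 h and 0.41 CPM at 4-6 h in this column. The diploids expressed markers of both mating types. The M factor gene mfm1 stood at 25.3 to 112 CPM (median 73.5) and 52.6 to 114 CPM (median 98.7), and 1 of 5 M markers fell. The P factor gene map2 stood at 11.7 to 310.5 CPM (median 31.6) and 8.83 to 68.8 CPM (median 16.5), and 3 of 4 P markers fell, of which map2 lost its call by strand and in 10 of the 18 fits that left out 1 library. The M marker that fell, sxa2, lost its call in 11 of them. map2 was highest in wild type at 1 h, at 310.5 CPM. Relative to total gene reads 10 mating genes fell and 0 rose, in a fit where most calls over all genes were lower.

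Non-coding RNAs were also counted. Of long non-coding RNAs, 804 were tested, 217 rose (27.0%) and 60 fell (7.46%). Of 4545 protein-coding genes 843 rose (18.5%) and 1050 fell (23.1%). By strand 315 of 1248 long non-coding RNAs rose and 104 fell. Small nucleolar RNAs gave 14 higher and 0 lower of 36. Features with an SPNCRNA identifier, mainly long non-coding RNAs, rose from 7.34 ± 1.73% (SD, n = 9) to 10.4 ± 2.38% (SD, n = 9) of gene reads. Non-coding features with other identifiers are not in that share. Phase labels exchanged within strains gave an exact two-sided p of 0.00025, the smallest this design allows, adjusted to 0.000375 over 6 library measures, with all 3 strains higher. The hours are ordered samples of a course and not replicates. Any measure that climbs steadily with time reaches this p, which does not measure the spread between cultures.

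Other library measures moved with the phase too, and the same limit holds for their exact p-values. Reads that lay on several genes rose from 19.4 ± 2.67% to 25.8 ± 2.39% (SD, n = 9 each, exact p = 0.00025). The share of the column for the minor strand rose from 21.1 ± 1.83% to 25.5 ± 3.49%, and the share of the 10 most abundant genes from 12.8 ± 2.40% to 19.4 ± 6.14%, each with the same exact p. In genes with no reads lost to a neighbour, the share on the other strand was 7.42 ± 4.54% and 7.81 ± 4.65% (exact p = 0.1235). Their part in the gene results was not tested. Gene reads did not pass, at 34.7 and 30.3 M on average (exact p = 0.21375).

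The hour at which a gene was highest differed between the strains, which the contrast of phases does not see. Among the 91 mug genes tested by strand, 42 were highest at 4 h in wild type and 23 at 5 h. Of all 6550 genes, 1343 were highest at 4 h and 839 at 5 h. In the red1 deletion 61 were highest at 6 h, the last hour compared, where 1851 of all genes were. In the pir1 deletion 22 were highest at 1 h and 39 at 2 h, against 2301 and 905 of all genes. The anaphase list had 15 of 21 highest at 4 h in wild type, 18 at 4-6 h in the red1 deletion and 19 at 1-3 h in the pir1 deletion. Of all 6550 genes 1343, 2929 and 3398 were highest in these hours and strains. Recombination genes were highest at 1 h in 14 of 20 cases in wild type and 18 in the pir1 deletion, and at 2 h in 11 in the red1 deletion, while of all genes 1865 were highest at 1 h in wild type and 1031 at 2 h in the red1 deletion. All 25 wtf genes had their highest value of 1 to 6 h at 4-6 h in each strain. Of all genes 3716 did in wild type, 2929 in the red1 deletion and 3152 in the pir1 deletion. Over 1 to 8 h, 24 wtf genes were highest at 7 or 8 h in the red1 deletion, 7 in wild type and 2 in the pir1 deletion. The counts over all genes were 1689, 1486 and 2335 in the same order. These are counts of single libraries, with no test.

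**Figure D4:**
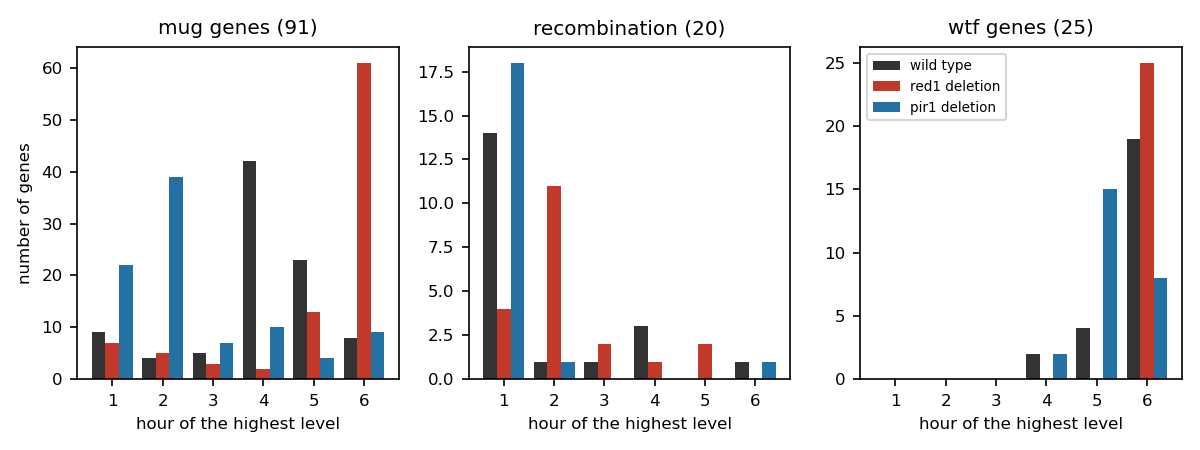
Number of genes (vertical axis) whose highest CPM of 1 to 6 h fell at each hour (horizontal axis), by strain, for the mug genes, the recombination list and the wtf genes, counted by strand. The mug genes pile up at 4 h in wild type, at 6 h in the red1 deletion and at 2 h in the pir1 deletion, while the wtf genes sit at 4 h or later in all strains.

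A similar order appeared across all genes. For each library of a deletion strain the most similar wild-type hour of 1 to 8 h was taken from Pearson's r of log2(CPM + 1) over 6550 genes, a description in which genes are not independent and depth and set are not removed. The red1 libraries of 4, 5 and 6 h were most like wild type at 3, 3 and 4 h, and those of 7 and 8 h like wild type at 5 h. The pir1 libraries of 1, 2 and 3 h were most like wild type at 3, 3 and 5 h. The best r ran from 0.949 to 0.963 in the red1 deletion and from 0.923 to 0.937 in the pir1 deletion.

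**Figure D5:**
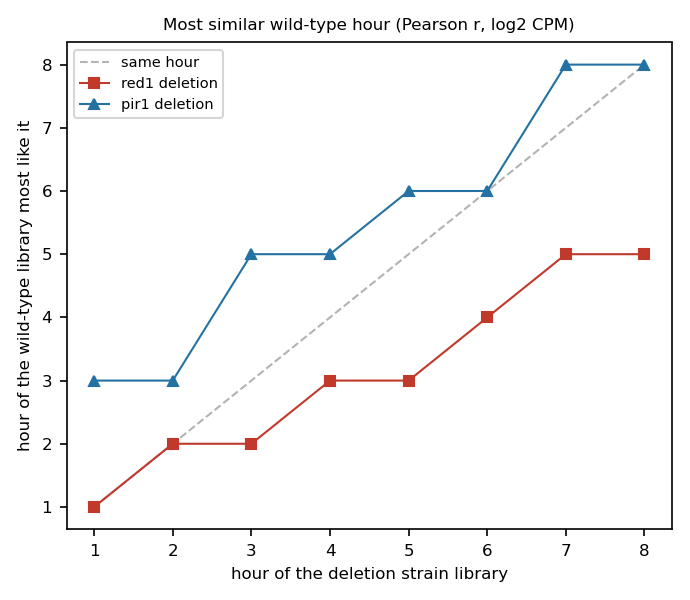
Wild-type hour (vertical axis) whose library was most similar to each deletion strain library (horizontal axis, hours 1 to 8), with a dashed line at equal hours. The red1 libraries from 3 h on lie below the line, and the pir1 libraries of 1 to 5 h and of 7 h lie above it.

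Tests of single hour steps called 0 genes (0%) at each of the 5 steps by edgeR's quasi-likelihood test, with the 3 strains as the replicates. At an unadjusted p under 0.05 the steps gave 269, 104, 123, 99 and 35 of 5623 genes, from 1 to 2 h through 5 to 6 h, the first the most. DESeq2 called 26 genes from 1 to 2 h, 6 higher and 20 lower, and 0 at the other steps.

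Whether the phase difference varies between strains was tested as an interaction. The F test over the 3 strains called 1 gene (0.0178%), the long non-coding RNA SPNCRNA.1282. The count varied with the tool and the column, at 36 by strand and 629 with DESeq2. With the hour after induction as a block, so that strains are compared hour by hour, it was 385. Set against wild type alone, the pir1 deletion departed in 89 genes with a more positive difference (1.58%) and in 138 with a more negative one (2.45%). By strand the counts were 98 (1.50%) and 186 (2.84%) of 6550. The red1 deletion departed from wild type in 0 genes (0%), with 926 at an unadjusted p under 0.05. With hours as a block the pir1 deletion departed in 307 genes upward and 398 downward, and the red1 deletion in 6 and 1. These contrasts and the hour block were added after seeing the data, and for the pir1 deletion the strain cannot be told apart from its set.

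Examples among the named genes, chosen after their values were seen, are these. The wild-type rise of mug24 exceeded that in the pir1 deletion by 6.71 on the log2 scale (adjusted p = 0.027), that of mug146 by 6.54 (adjusted p = 0.035) and that of meu15 by 6.36 (adjusted p = 0.02). The falls of rec8, mek1, rec25, crs1 and mug8 were smaller in the pir1 deletion, by 3.45, 3.22, 2.79, 2.34 and 1.59 (largest adjusted p = 0.046). rec8 held 151, 103 and 65.7 CPM in the pir1 deletion at 1, 2 and 3 h, against 566, 277 and 34.0 CPM in wild type. The late gene glm1 did not pass, with a difference of 0.27 (adjusted p = 0.88).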

How the data were processed

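The 18 libraries come from the meiotic course, and each has 1 deposited table of whole-read counts per gene. Per the labels, the RNA kit was MasterPure, the library kit either ScriptSeq v2 or Ultra II Directional, and the sequencer a MiSeq or a NextSeq, none tied to single samples. Per the submitters' processing notes, Trimmomatic and STAR were used. Their versions, the build and the annotation were not given in the sources used here. Counts, as deposited, are not normalised and come without strand and for each strand setting. Rows for unmapped, multimapping, unassigned and ambiguous reads stayed out of totals and tests, and ambiguous reads made up 16.5 to 29.8% of a library. Of 7015 features, 6845 (97.6%) matched RefSeq and 4409 had a symbol.

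Tests used R 4.3.3 and edgeR 4.0.16 (TMM, filterByExpr, glmQLFit and glmQLFTest, strain as block, Benjamini-Hochberg), with DESeq2 1.42.0 as an alternative, and Python 3.11.15 with pandas 2.3.3. The script was tested on simulated data. CPM were computed here from the counts. Members and the 28 gene lists were chosen with earlier results of these data known. The rule for named genes took the 15 strongest rises and 10 strongest falls past 0.05 having a symbol, a mean of 100 reads and 1 direction in all strains, up to 4 members per list by p, and 28 anchors such as mei4 and isp3, of which a selection is printed. plo1, fin1, ark1, spo3, spo9, mok12, mok14, clr4 and ssm4 were chosen after their values were seen. Values by strand were added after the column without strand was seen to lose overlapping genes. The list names ssf1 and nug1 were not matched. PCR reads here carry no stated molecular identifiers, so reads are not independent molecules.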

Additional observations from a re-analysis of the deposited data

Results flagged for a closer look

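The long non-coding RNA SPNCRNA.1282 was, in the reported fit, the gene whose difference between the phases varied between strains in the interaction test (adjusted p = 0.0401, edgeR). Its log2 ratio of 4-6 h to 1-3 h was 2.10 in wild type, 0.63 in the red1 deletion and -0.07 in the pir1 deletion, with 3 libraries per strain and phase. It is low, at 1.93 CPM on average at 1-3 h and 4.34 CPM at 4-6 h, and by strand its interaction had an adjusted p of 0.23.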

How the results depend on the processing

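Against 1150 genes higher and 1130 lower, scaling to total gene reads gave 599 and 2228, dropping the strain term 642 and 692, leaving the wild type strain out 559 and 715, wild type alone 248 and 139, and leaving the red1 deletion out 682 lower. At 2-fold, with 482 higher and 186 lower in the reported fit, total gene reads gave 311 and 539, leaving wild type out 202 and 52, wild type alone 248 higher, 5 and 6 h against 1 and 2 h 365 lower, leaving the pir1 deletion out 381 lower, and the pir1 deletion alone 57 lower. Leaving out each library in turn gave 920 to 1301 genes higher, 944 to 1213 lower and, at 2-fold, 112 to 251 lower, the lowest count without the wild-type library of 1 h. The interaction count of 1 became 3 with RLE size factors, 0 with total gene reads, 36 by strand, 385 with hours as a block and 629 with DESeq2, and the 0 of the step from 1 to 2 h became 26 with DESeq2. The cause of these shifts was not tested, except that fits with fewer libraries have fewer samples.

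Of 133 named genes, 0 changed sign where either fit called them when 1 library or 1 strain was left out, or under another scaling, filter, tool, column or hour choice. Genes given by strand had no fit with another column or hour choice. The largest rises and falls were chosen to move 1 way in all strains, so their steadiness over strains is partly set by that rule. In the pir1 deletion alone plo1 (-0.40), fin1 (-0.38), ark1 (-0.22), spo3 (-0.055), clr4 (-0.65), ssm4 (0.38), mei4 (-0.94), mes1 (-0.80), cdc25 (-0.96), rem1 (-0.85), psy1 (-0.14), sec9 (-0.087), iss10 (-0.12), spo6 (-0.40), mfr1 (-0.075), atf31 (-0.50) and spn2 (-0.36) took the other sign on the log2 scale. By strand, 8 of 2007 genes called in both columns had opposite calls. No paired analysis was possible because the labels give no replicate numbers and an hour lies in 1 phase only. This concerns the contrast of phases, which has strain as its block. Across strains the hours do match, and that fit is the hour block above. Low counts limit genes near 1 CPM.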

Other observations

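The histone H3 lysine 9 methyltransferase gene clr4, chosen after its values were seen, rose by strand over the 3 strains (1.34 ± 0.47 SE, adjusted p = 0.032, edgeR). Its log2 ratio of 4-6 h to 1-3 h was 2.68 in wild type, 1.81 in the red1 deletion and -0.64 in the pir1 deletion, and the pir1 difference from wild type had an adjusted p of 0.019. The dynactin-related gene ssm4, a target of RNA elimination also chosen after its values were seen, had ratios of -2.02, -0.79 and 0.39 in the same order, with an adjusted p of 0.044 for the interaction by strand. The call of clr4 over the strains was lost relative to total gene reads and without any 1 of wild type 1, 2, 3 or 5 h, red1 deletion 1, 2 or 6 h, and that of ssm4 without wild type 1, 2, 4, 5 or 6 h, red1 deletion 1, 2, 5 or 6 h.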
